A study of Mus musculus with 8 samples.

Results

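The comparison described here asks which genes responded to myocardial infarction (MI) differently at 3 days than at 1 day. RNA was sequenced from left ventricular free wall tissue of male C57BL/6 mice aged 8 to 12 weeks, in 4 groups of 2 mice: sham surgery at 1 day, MI at 1 day, sham surgery at 3 days and MI at 3 days. MI was induced by tying off the left anterior descending coronary artery, and ischemic tissue was taken. Sham-operated mice had the operation without the ligation, and each day had its own sham group. All mice were wild type as far as the labels say, with no transgene and no drug. The contrast used all 8 libraries of the 8 in the series: it is the effect of MI against sham at 3 days minus the effect of MI against sham at 1 day, on the log2 scale. A positive difference means that MI against sham lay further up at 3 days than at 1 day, and a negative one that it lay further down. The letters A and B tell the 2 libraries of each group apart by column, since no column carries a mouse number. Both sham columns of 1 day have the same header name; they held different counts (2.07e+07 and 2.01e+07 in sum, Spearman correlation across genes 0.990) and each was closest to a different sham column of the transcript table, and they were taken as the 2 mice that the labels give.

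As background, an infarct passes from necrosis and inflammation to repair. Neutrophils enter the ischemic muscle first, monocytes follow and become macrophages that clear debris, and fibroblasts then divide, contract and lay down collagen. The cardiomyocytes of the ischemic zone, which hold the sarcomeres and most of the mitochondria, die early, and survivors at the border switch on stress genes. Tissue RNA adds up all of these cells, so fewer cells of a type and less RNA per cell cannot be told apart in any result below.

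The gene counts summed to 1.88e+07 to 2.07e+07 reads in the sham libraries, 1.27e+07 and 7.38e+06 after MI at 1 day (A and B), and 2.11e+07 and 2.50e+07 after MI at 3 days. A floor of 3 counts was worth 0.102 to 0.369 CPM in a library (CPM is a gene's count scaled to the same total in every library, after TMM normalisation). Mitochondrially encoded genes took 28.7% and 43.3% of the transcript-table reads after MI at 1 day (A and B), 6.51% and 4.19% after MI at 3 days, and 13.9 to 16.6% in the sham libraries. Of 1503 chemosensory receptor genes, which serve smell and taste, 92.3% had reads in MI library B at 1 day, 50.6% in sham library B at 1 day and 4.32 to 23.5% in the other libraries. The mitochondrial share moved with the groups, whereas the chemosensory share was highest in the B libraries of 1 day. Their part in the results was not tested, and any batch that went with surgery or day cannot be told apart from the groups. Of the 10 cardiomyocyte markers checked, all were detected in every group, and their summed level was 115780 and 109500 CPM after sham surgery and 53083 and 39287 CPM after MI at 1 day, and 80893 and 87642 and then 4871 and 5192 CPM at 3 days.

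Of 15508 genes tested, 3799 passed the test of the difference at an adjusted p under 0.05 (24.5% of genes tested, edgeR quasi-likelihood F test with Benjamini-Hochberg adjustment). The difference was positive for 2046 genes (13.2%) and negative for 1753 (11.3%), and 3433 of the 3799 differed by at least 1 on the log2 scale. The median difference over all genes tested was -0.04. Each day's own effect sorted these genes into classes. An effect reversed where both days passed the test with opposite signs. Of the rest, it faded where 1 day passed and the effect was smaller at 3 days, and it grew where 3 days passed and the effect was larger at 3 days. By this rule 78 genes rose at 1 day and fell at 3 days (0.503% of genes tested), and 257 fell at 1 day and rose at 3 days (1.66%). A rise faded for 290 genes (1.87%), a fall faded for 293 (1.89%), a rise grew for 1455 (9.38%), a fall grew for 1338 (8.63%), and 88 fitted none of these. The grown classes were thus the largest in both directions, but many of their effects were not past the test at 1 day. Of the 1455 rises, 194 had passed at 1 day and 712 had the opposite sign at 1 day without passing. Their median effect at 1 day was 0.02. Of the 1338 falls, 731 had passed at 1 day and 295 had the opposite sign without passing. In the scatter of the 2 days' effects, the genes that grew lie above and below the middle of the plot, and the reversed genes fill the corners where the signs disagree.

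**Figure D1:**
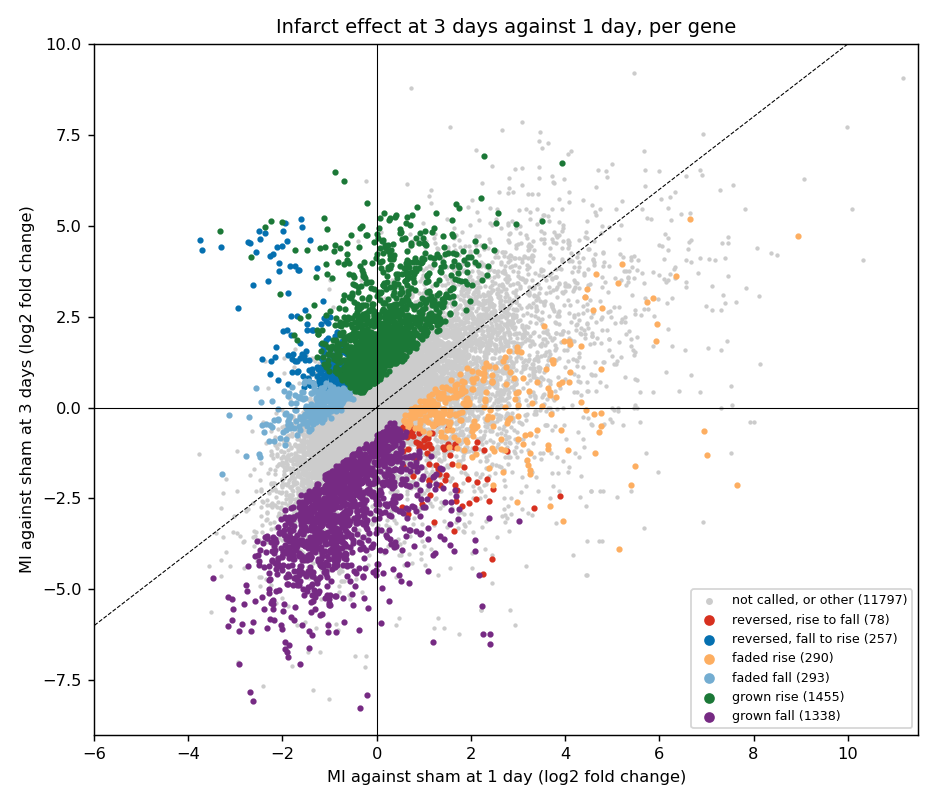
Log2 fold change of MI against sham at 1 day (x axis) and at 3 days (y axis) for each of the 15508 genes tested; colours mark the classes, with their numbers in the legend, and the dashed line marks equal effects. The 257 genes that fell at 1 day and rose at 3 days are in the upper left and the 78 that rose and then fell in the lower right.

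Most of these genes differed between the days in the MI mice. The comparisons between days, of MI and of sham, reuse the libraries of the difference and are no separate support for it. The infarcted libraries of 3 days and 1 day differed for 7042 genes (45.4% of genes tested), among them 3668 of the 3799 genes (96.6%). The sham libraries of the 2 days differed for 0 genes by edgeR after adjustment (0% of genes tested), with 1211 genes at an unadjusted p under 0.05 (7.81%). DESeq2 called 44 genes in the sham libraries, 25 of them among the 3799, and limma-voom 0. For 131 of the 3799 genes neither surgery group passed the test between days. In each of the 3799 genes the 4 MI-minus-sham differences of 1 day, over the pairs of libraries, lay wholly apart from the 4 of 3 days, which held for 52.3% of all genes tested. Read from the side of 1 day, 2993 genes had risen (19.3% of genes tested) and 3058 had fallen (19.7%). Of those that had risen, 1816 (60.7%) were also higher at 3 days, 78 (2.61%) were lower and 1099 (36.7%) no longer passed the test. Of those that had fallen, 2063 (67.5%) were also lower at 3 days, 257 (8.40%) were higher and 738 (24.1%) no longer passed. At 3 days 4912 genes had risen (31.7% of genes tested) and 3679 had fallen (23.7%).

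Among the genes that rose at 1 day and fell at 3 days, the largest differences of the named genes were those of Scd4, Pdk4 and Klhl41. Of the fatty acid oxidation list 1 of 28 members was in this class, and of the sarcomere list 0 of 25. Pdk4 (chromosome 6, 5483351 to 5496278 in GRCm38.p6) encodes the kinase that shuts off pyruvate dehydrogenase and so favours fatty acids as fuel. Its level was 810.4 and 459 CPM in sham libraries A and B of 1 day and 2309 and 1624 CPM after MI. At 3 days it was 459 and 543 CPM after sham surgery and 45.5 and 49.5 CPM after MI. Both MI libraries were thus above both sham libraries at 1 day and below them at 3 days. The effect of MI on Pdk4 was 1.63 (SE 0.28, adjusted p = 0.00195) at 1 day and -3.40 (SE 0.30, adjusted p = 1.33e-05) at 3 days, and their difference was -5.03 (SE 0.41, adjusted p = 0.000118). Scd4, a stearoyl-CoA desaturase gene that makes monounsaturated fatty acids, was at 13.4 and 14.7 CPM after sham surgery and 38 and 98.7 CPM after MI at 1 day. By 3 days its level was 21.6 and 14.2 CPM and 0.82 and 0.681 CPM. The MI libraries again changed sides, and the difference of -6.83 (SE 0.70, adjusted p = 0.000291) was the most negative among the reversed genes.

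The muscle genes Klhl41 and Klhl40, which encode kelch proteins that stabilise thin filaments, showed the same order of levels. Klhl41 was at 117 and 117 CPM after sham surgery and 612 and 390.4 CPM after MI at 1 day, and at 85.8 and 85.9 and 15.9 and 14 CPM at 3 days. Its difference was -4.62 (SE 0.32, adjusted p = 0.000105). Klhl40 went from an effect of 1.21 at 1 day to -3.13 at 3 days, with a difference of -4.35 (SE 0.54, adjusted p = 0.00073), and stayed in the class in 11 of 16 other settings. Xirp1, whose product binds actin at the intercalated discs that join cardiomyocytes, was at 577 and 420.4 CPM after sham surgery and 2196 and 1076 CPM after MI at 1 day. Its level at 3 days was 259 and 278 CPM and 57.3 and 53.4 CPM, and the difference of its effects was -3.99 (SE 0.44, adjusted p = 0.000393). Hspb1, a small heat shock protein of stressed muscle, moved from 1.55 to -1.30, a difference of -2.85 (SE 0.53, adjusted p = 0.00495), and stayed in the class in 12 of 16 settings. Slc1a1, a glutamate transporter gene, moved from 1.82 to -2.70 at low levels of 0.545 to 18.3 CPM, a difference of -4.52 (SE 0.67, adjusted p = 0.00161). Over the 78 genes of the class the median effect was 1.16 at 1 day and -1.19 at 3 days.

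Xirp1 and Hspb1 belong to a list of 20 cardiac stress and fetal genes that cardiomyocytes switch on under load or injury. At 1 day 12 of the 20 had risen and 2 had fallen, and at 3 days 7 had risen and 7 had fallen. The difference was negative and passed the test for 12 of the 20 and positive for 2, against 11.3% and 13.2% of all genes, with a median of -2.09. Among the 12, Ankrd1, a stress-induced titin-binding protein, went from 2.73 to 0.01, and Flnc, filamin C, had a difference of -2.67 (SE 0.32, adjusted p = 0.000643). Nppb, which encodes the natriuretic peptide of stretched ventricles, was at 404 and 383 CPM after sham surgery and 2261 and 2027 CPM after MI at 1 day. At 3 days its level was 507 and 316 CPM and 866 and 480 CPM, and the sham and MI libraries overlapped. Its rise faded from 2.45 to 0.71, a difference of -1.74 (SE 0.41, adjusted p = 0.0149). Nppa, the atrial natriuretic peptide, had a positive difference of 1.27 (SE 0.32, adjusted p = 0.0196), but the infarcted libraries alone did not differ between the days (372 and 579.7 CPM, then 495 and 515 CPM; 0.09, SE 0.23, adjusted p = 0.778). The sham libraries of Nppa were at 348 and 404 CPM at 1 day and 144 and 187 CPM at 3 days, lower at 3 days but not past the adjusted test (-1.18, SE 0.23, adjusted p = 0.631). The call for Nppa was lost without sham library B of 1 day, sham library A of 3 days or MI library A or B of 3 days (adjusted p up to 0.0918), and that for Nppb without sham library A or B of 1 day or MI library B of 3 days, or without both B libraries of 1 day (adjusted p up to 0.0742). The 10 cardiomyocyte markers had lower summed levels after MI at both days (given above), whereas most of this list had risen at 1 day, and their part was not tested.

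Ciart, a repressor of the circadian clock, also rose and then fell. Its level was 3.19 and 4.31 CPM after sham surgery and 8.52 and 7.87 CPM after MI at 1 day, and 2.73 and 3.08 and 0.492 and 0.579 CPM at 3 days. The difference of -3.55 (SE 0.54, adjusted p = 0.0019) held in every setting, but the gene stayed in the class in 9 of 15. Of 22 clock genes, 13 had a negative difference and 1 a positive one, against 11.3% and 13.2% of all genes, with a median of -1.35. Leaving out sham library A or B of 1 day or MI library A of 3 days lowered the 13 to 7, and leaving out MI library B of 3 days to 5. At 1 day 4 of the 22 had risen and 2 had fallen, and at 3 days 0 had risen and 13 had fallen. Per2, another clock repressor, went from 1.93 to -0.96, and Hlf, a transcription factor of the clock's output, from -0.83 to -3.87 (difference -3.04, SE 0.79, adjusted p = 0.0217), which did not pass without sham library A of 1 day, MI library B of 1 day, sham library A of 3 days or MI library A or B of 3 days (adjusted p up to 0.117). The labels do not state a time of day for tissue collection. Clock activators bind the E-box CACGTG, which reads the same on both strands, and 4 of the 14 clock genes with a single RefSeq promoter (28.6%) held it in the 300 bases around the start, against 9.82% of 9159 tested genes. The Ciart promoter is shown because it holds 3 of them, starting at -116, -58 and -44 from the transcription start, and also 3 CCAAT boxes (CCAAT on either strand). The 250 bases before the start (chr3:95882229-95882478, minus strand, GRCm38.p6, RefSeq) are printed 5′ to 3′ with these matches in capitals.

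Ciart: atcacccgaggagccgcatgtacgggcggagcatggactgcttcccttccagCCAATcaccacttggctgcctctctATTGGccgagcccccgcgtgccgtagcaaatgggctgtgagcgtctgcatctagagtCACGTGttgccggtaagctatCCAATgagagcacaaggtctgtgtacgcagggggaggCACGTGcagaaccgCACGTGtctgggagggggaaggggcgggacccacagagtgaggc

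Genes that fell at 1 day and rose at 3 days included fibrillar collagens and replication-dependent histones. Col1a1 (chromosome 11, 94936224 to 94953042 in GRCm38.p6) encodes the alpha 1 chain of type I collagen, the main fibre of scar. It was at 156 and 139 CPM after sham surgery and 22.7 and 25.1 CPM after MI at 1 day. At 3 days it was at 156 and 95.3 CPM after sham surgery and 1202 and 1392 CPM after MI. Each MI library was below both sham libraries at 1 day and above both at 3 days. The effect went from -2.63 (SE 0.26, adjusted p = 0.000182) to 3.37 (SE 0.25, adjusted p = 5.03e-06), a difference of 6.00 (SE 0.36, adjusted p = 9.18e-05). Col1a2, its partner chain, went from -1.88 to 3.14, a difference of 5.01 (SE 0.33, adjusted p = 9.76e-05). Col3a1, type III collagen of early scar, was at 706 and 863 CPM after sham surgery and 210 and 279.6 CPM after MI at 1 day, then at 1154 and 696 and 5097 and 5578 CPM, a difference of 4.21 (SE 0.37, adjusted p = 0.000158). All 3 kept this class in 16 of 16 settings.

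The reversal was not shared by all matrix genes. Of 41 genes of fibrillar matrix and activated fibroblasts, 10 had risen and 13 had fallen at 1 day, whereas 34 had risen and 1 had fallen at 3 days. The difference passed the test with a positive sign for 30 and a negative sign for 0, against 13.2% and 11.3% of all genes, with a median of 2.11. Of the 30, 9 reversed, 18 had a rise that grew and 3 had a fall that faded. Postn, periostin of activated fibroblasts, had already risen at 1 day, from 99.6 and 96.7 CPM after sham surgery to 192 and 254 CPM after MI. By 3 days its level was 179 and 121 CPM after sham surgery and 4398 and 4056 CPM after MI. Its effect grew from 1.18 to 4.82, a difference of 3.63 (SE 0.32, adjusted p = 0.00015). Acta2, smooth muscle actin of myofibroblasts and vessels, went from -0.65 (SE 0.23, adjusted p = 0.0498) to 1.12 (SE 0.23, adjusted p = 0.00241); its difference was 1.78 (SE 0.33, adjusted p = 0.00475), and it counted as reversed in 6 of 16 settings. Serpinh1, the collagen chaperone of the endoplasmic reticulum, reversed from -1.14 to 1.71. The basement membrane collagen gene Col15a1, which is not among the 41 but is a quiescent fibroblast marker counted below, reversed from -1.11 to 1.51. Tnc and Thbs1, matrix proteins of wounds, were high at both days (4.63 and 5.37 for Tnc, 4.30 and 3.86 for Thbs1), and their differences did not pass the test (adjusted p = 0.341 and 0.633).

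Markers of quiescent fibroblasts were split. Of 18, the difference was positive for 3 and negative for 5, against 13.2% and 11.3% of all genes, with a median of -0.26. The 3 included Col15a1, with a difference of 2.62. The 5 included Scara5, a ferritin receptor of resting fibroblasts, which went from -1.40 to -5.34 (difference -3.94, SE 0.64, adjusted p = 0.00256), and Clec3b, from -1.79 to -4.34. Leaving out either sham library of 1 day, sham library A of 3 days or either MI library of 3 days lowered the 5 to 2, and leaving out sham library A of 3 days raised the 3 to 5. Pdgfra and Tcf21, which mark most cardiac fibroblasts, had differences near 0 (0.14 and 0.44) that did not pass the test. In the 12 smooth muscle and pericyte markers the difference was positive for 2 and negative for 2, against 13.2% and 11.3% of all genes. Their summed level was 1351 to 1970 CPM over the 8 libraries.

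Histone genes of the replication-dependent clusters, which are copied into RNA only while DNA is replicated, gave the largest positive differences among the reversed genes. Hist1h1b, a linker histone, was at 6.09 and 12.6 CPM after sham surgery and 2.27 and 1.11 CPM after MI at 1 day. Its level at 3 days was 11.2 and 6.8 CPM after sham surgery and 222 and 283 CPM after MI. The 2 days' effects were -2.38 (SE 0.53, adjusted p = 0.00712) and 4.81 (SE 0.36, adjusted p = 5.76e-06), a difference of 7.18 (SE 0.61, adjusted p = 0.000129). The core histone genes Hist1h3c, Hist1h2bj and Hist1h2ak had differences of 7.22, 7.01 and 6.82, and the linker histone Hist1h1a one of 6.85. A set of all tested symbols of the form Hist plus a digit, chosen after the values were seen, held 57 genes. Of these, 53 had a positive difference and 0 a negative one, against 13.2% and 11.3% of all genes. In this set 34 genes reversed (13.2% of all genes that fell and then rose) and 19 had a rise that grew. Near-identical copies can share reads in these clusters, so single histone genes are uncertain. Their summed level was 735 and 858 CPM after sham surgery and 421 and 330.4 CPM after MI at 1 day, and 841 and 578 and 6882 and 7959.8 CPM at 3 days. Replication-dependent histone RNAs lack a poly(A) tail, for which depletion of ribosomal RNA does not select.

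Other genes that fell and then rose included 7 of 32 lysosomal genes, 1 of 37 cytokines and chemokines and 2 of 31 interferon-stimulated genes. Over all genes tested the share of this class was 1.66%. Gusb, the lysosomal beta-glucuronidase, was at 37 and 36.3 CPM after sham surgery and 22 and 18.5 CPM after MI at 1 day, then at 39.6 and 30.4 and 135 and 163 CPM. Its difference was 2.94 (SE 0.29, adjusted p = 0.000234), and it kept the class in 12 of 16 settings. Ccl8, a chemokine made by resident cardiac macrophages among others, went from -2.44 to 1.33 (difference 3.77, SE 0.78, adjusted p = 0.00802), a reversal kept in 9 of 16 settings. Bst2, the antiviral tetherin, went from -1.07 to 1.85 (difference 2.93, SE 0.33, adjusted p = 0.000459). Over the 257 genes of this class the median effect was -0.96 at 1 day and 1.00 at 3 days. In the plot of the reversed genes by library, the MI points cross from one side of the sham points to the other between the days in all 8 panels.

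**Figure D2:**
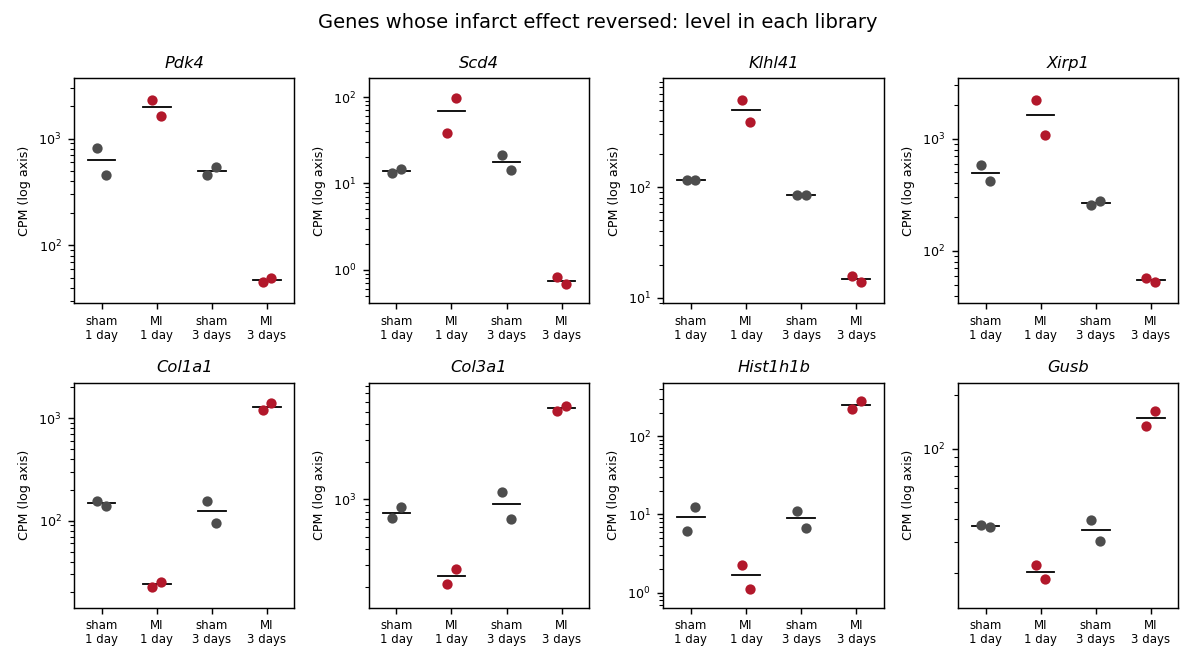
Level in each library (CPM, log axis) of 8 genes whose effect of MI reversed, by surgery and day; points are the 2 libraries of a group, red for MI and grey for sham, and bars are their mean. In the upper 4 panels both MI libraries lie above sham at 1 day and below it at 3 days, as for Pdk4, and in the lower 4 the order is the opposite, as for Col1a1.

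Among rises that faded were single neutrophil, cytokine and immediate early genes. Cd177, a surface glycoprotein of neutrophils, was at 2.43 and 1.09 CPM after sham surgery and 137 and 78.2 CPM after MI at 1 day. At 3 days its level was 1.07 and 0.903 CPM after sham surgery and 5.49 and 1.74 CPM after MI. The effect shrank from 5.94 (SE 0.54, adjusted p = 0.000148) to 1.83 (SE 0.70, adjusted p = 0.0496), a difference of -4.11 (SE 1.06, adjusted p = 0.0204). Ngp, a granule protein of immature neutrophils, was at 68.4 and 7.63 CPM after MI at 1 day and 0.533 and 0.102 CPM at 3 days, where the sham libraries held 1.71 and 0.956 CPM; its difference was -7.53 (SE 2.01, adjusted p = 0.0234). The call for Ngp was lost without sham library A or B of 1 day, sham library A or B of 3 days or MI library A or B of 3 days, or with no filter on low counts or with limma-voom (adjusted p up to 0.134), and that for Cd177 without sham library B of 1 day or sham library A or B of 3 days (adjusted p up to 0.102). Of 24 neutrophil markers, 22 had risen at 1 day and 17 at 3 days. The difference was negative and past the test for 5 (Ngp, Cd177, Retnlg, Lcn2 and Cxcr2) and positive for 0, a share of the list to set beside 11.3% of all genes, with a median of -0.62. The 5 became 1 without sham library B of 1 day or sham library A of 3 days, 2 without sham library B of 3 days, and 3 without sham library A of 1 day or MI library B of 3 days, and DESeq2 called 9. S100a8, the most abundant calcium-binding protein of neutrophils, was at 497 and 219.7 CPM after MI at 1 day and 282 and 139 CPM at 3 days, and its difference did not pass the test (-0.67, SE 0.67, adjusted p = 0.497).

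Most cytokines and chemokines were high at both days. Of 37, 29 had risen at 1 day and 28 at 3 days, and the difference was negative for 3, positive for 4 and not past the test for 30, with a median of -0.82. Both shares lie below those of all genes (11.3% negative and 13.2% positive). The 3 were Il6, Cxcl1 and Cxcl5, the latter pair attractants of neutrophils, and the 4 were Ccl8, Ccl9, Spp1 and Cxcl16. The count of 3 became 0 without sham library A of either day and 1 without sham library B or MI library A of 1 day or MI library B of 3 days. Il6 (chromosome 5, 30013114 to 30019975 in GRCm38.p6), the pyrogenic cytokine, was at 188 and 101 CPM after MI at 1 day and 141 and 56.4 CPM at 3 days, so the MI libraries of the 2 days overlapped (-0.55, SE 0.41, adjusted p = 0.299 between days). The sham libraries held 0.174 and 0.402 CPM at 1 day, which is 3 and 7 counts, and 4.97 and 2.55 CPM at 3 days. The effect thus went from 8.94 to 4.71, a difference of -4.23 (SE 1.13, adjusted p = 0.0225). The sham mice did not pass the adjusted test between days (3.67, SE 1.04, adjusted p = 0.631). The call for Il6 was lost without sham library A or B of 1 day or sham library A of 3 days, or with limma-voom (adjusted p up to 0.131). Its promoter is shown because it holds matches to motifs of factors active in inflammation: AP-1 (TGANTCA) near the 5′ end of the printed stretch and NF-kB at -44, searched on both strands. A CCAAT box lies at -106. In the 300 bases around the start, NF-kB matches stood in 37 of 9159 promoters (0.404%). Of the 168 promoters of faded rises 2 held one (1.19%), Il6 among them. AP-1 matches stood in 5.16% of the 9159 and in 13 of the 168 (7.74%). Genes that rose and then fell held AP-1 matches in 4 of 42 promoters (9.52%). The 250 bases before the start are chr5:30012864-30013113, plus strand, GRCm38.p6, from RefSeq, with the 3 matches in capitals.

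Il6: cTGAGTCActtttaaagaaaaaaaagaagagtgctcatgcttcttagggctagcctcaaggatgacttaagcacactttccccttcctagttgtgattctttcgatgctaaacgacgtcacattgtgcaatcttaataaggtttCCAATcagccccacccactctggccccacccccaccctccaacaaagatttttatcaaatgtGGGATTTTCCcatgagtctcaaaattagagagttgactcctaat

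Immediate early genes are switched on within minutes of a stimulus. Of 27, 17 had risen at 1 day and 0 had fallen, whereas 6 had risen and 3 had fallen at 3 days. The difference was negative for 4 (Btg2, Klf4, Atf3 and Klf6) and positive for 0, a share near the 11.3% of all genes with a negative difference, and the median was -1.52. This count was 0 without sham library B of 1 day, 1 without MI library B of 3 days, 2 without sham library A of either day, 10 without MI library A of 3 days and 12 without MI library B of 1 day. MI libraries A and B of 1 day held 4705 and 1859.5 CPM in sum over the list. Btg2, an inhibitor of cell division, was at 60.2 and 49.7 CPM after sham surgery and 389 and 215 CPM after MI at 1 day, and at 245 and 119.7 and 183 and 75.2 CPM at 3 days, so that the groups stood apart at 1 day and overlapped at 3 days. Its difference was -2.96 (SE 0.65, adjusted p = 0.0103). Klf4, a transcription factor of vessels and macrophages, had a difference of -2.17 (SE 0.61, adjusted p = 0.0298). By class it was a fall that grew, whereas the other called members of the list were rises that faded. Klf4 did not pass without sham library A or B of 1 day, MI library A of 1 day, sham library A or B of 3 days or MI library B of 3 days (adjusted p up to 0.13), and that for Btg2 without sham library B of 1 day (adjusted p up to 0.0604). Arc, an immediate early gene best known from neurons, went from 3.63 to -1.14 (difference -4.77, SE 1.21, adjusted p = 0.019). The call for Arc was lost without sham library B of 1 day, sham library B of 3 days or MI library A or B of 3 days, or with limma-voom (adjusted p up to 0.136). Fos and Egr1 had large negative differences (-3.99 and -5.11) that did not pass the test (adjusted p = 0.0531 and 0.0527).

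Usp53, a gene of the ubiquitin-specific protease family, had a rise at 1 day only. It was at 21.3 and 20.7 CPM after sham surgery and 292 and 255 CPM after MI at 1 day, and at 26.3 and 23.8 and 23.7 and 20.5 CPM at 3 days. The MI libraries were far above sham at 1 day and just below both sham libraries at 3 days. Its effect went from 3.70 (SE 0.19, adjusted p = 2.55e-05) to -0.18 (SE 0.18, adjusted p = 0.405), a difference of -3.89 (SE 0.25, adjusted p = 9.76e-05). Cass4, an adaptor of focal adhesions, went from 4.76 to 1.07 (difference -3.69, SE 0.93, adjusted p = 0.0185). The call for Cass4 was lost without sham library A or B of 1 day, sham library A of 3 days or MI library B of 3 days (adjusted p up to 0.11). Over the 290 faded rises the median effect was 1.82 at 1 day and -0.03 at 3 days. Of the 290, 60 still passed the test at 3 days, and 149 had the opposite sign at 3 days without passing.

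Falls that faded had a median effect of -1.16 at 1 day and 0.11 at 3 days, with differences of 0.69 to 3.12. Of the 293, 19 still passed the test at 3 days, and 174 had the opposite sign at 3 days without passing. L3hypdh, an enzyme that breaks down a hydroxyproline from collagen, was at 7.77 and 11.1 CPM after sham surgery and 1.22 and 0.861 CPM after MI at 1 day, and at 9.84 and 9.19 and 8.69 and 7.76 CPM at 3 days. Its MI libraries were far below sham at 1 day and just below it at 3 days, with a difference of 2.92 (SE 0.51, adjusted p = 0.00347). Tmem106c, a transmembrane protein, had a difference of 2.42 (SE 0.37, adjusted p = 0.00189), and Spon2, a secreted matrix protein, one of 2.60 (SE 0.59, adjusted p = 0.0123). The small nucleolar RNAs Snora64 and Snora5c had differences of 3.12 (SE 0.80, adjusted p = 0.0198) and 2.45 (SE 0.73, adjusted p = 0.036). Both lie inside other genes and were lowest in MI library B of 1 day, at 0.492 and 1.48 CPM, against 10.1 and 12.7 CPM in library A. The call for Snora64 was lost without sham library A or B of 1 day, sham library B of 3 days or MI library A or B of 3 days, or with DESeq2 (adjusted p up to 0.149), that for Snora5c without sham library A or B of 1 day, sham library B of 3 days or MI library A or B of 3 days, or with DESeq2 (adjusted p up to 0.163) and that for Spon2 without MI library A of 1 day (adjusted p up to 0.0589).

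**Figure D3:**
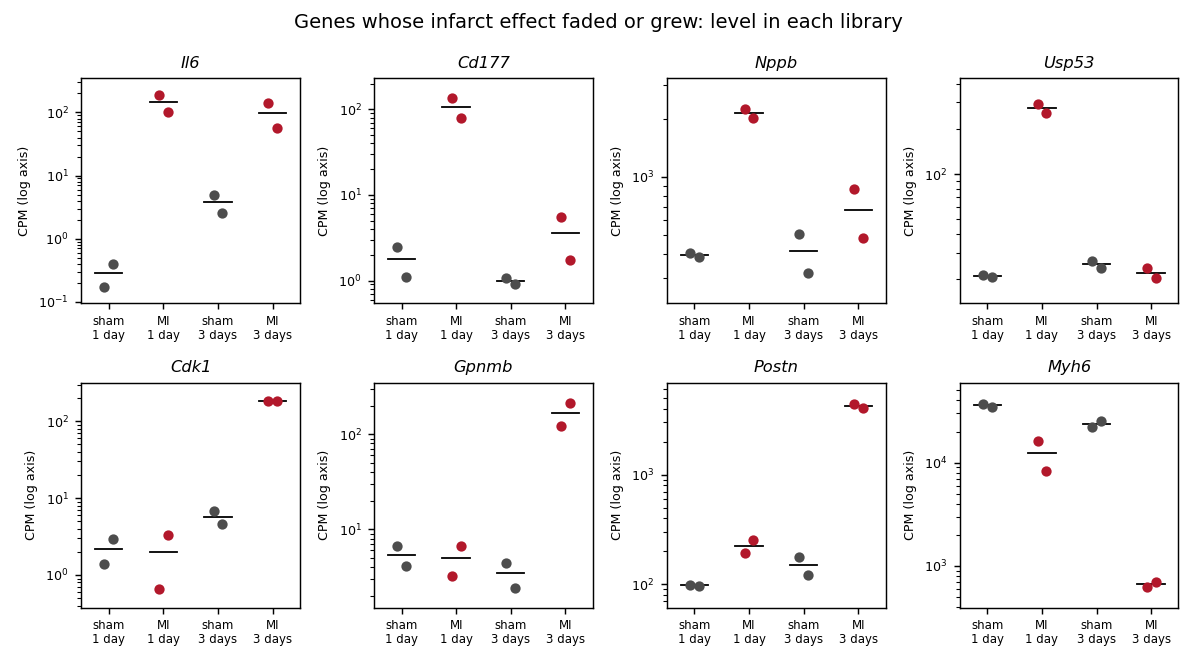
Level in each library (CPM, log axis) of 4 genes whose rise faded (upper panels) and of 4 whose effect grew (lower panels), by surgery and day; points are the 2 libraries of a group, red for MI and grey for sham, and bars are their mean. For Il6 the MI libraries overlap between the days and the sham libraries do not, while for Cdk1, Gpnmb and Postn the MI libraries of 3 days stand above all others and for Myh6 below all others.

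Rises that grew included 36 genes of the cell cycle list. Of 44 genes that drive cell division and DNA replication, 2 had risen and 1 had fallen at 1 day, and all 44 had risen at 3 days. The difference was positive and past the test for 37 and negative for 0, with a median of 3.20, and the count lay between 30 and 42 when any 1 library was left out. Over all genes the shares were 13.2% positive and 11.3% negative. Cdk1, the kinase that starts mitosis, was at 1.39 and 2.93 CPM after sham surgery and 0.649 and 3.32 CPM after MI at 1 day. At 3 days it was at 6.85 and 4.62 CPM after sham surgery and 185 and 184 CPM after MI. The groups overlapped at 1 day and were far apart at 3 days, with a difference of 5.31 (SE 0.72, adjusted p = 0.00113). Top2a, the topoisomerase of dividing cells, went from -1.20 to 4.39, a difference of 5.59 (SE 0.69, adjusted p = 0.000684). Aurkb, a mitotic kinase, had a difference of 5.95 (SE 1.00, adjusted p = 0.0028). Cdca3, a factor for entry into mitosis, had one of 6.32 (SE 0.95, adjusted p = 0.00156). Both were near the floor after MI at 1 day, with 1 and 11 counts of Aurkb and 2 and 9 of Cdca3 in libraries A and B. The histone genes Hist1h2ah and Hist1h3i were in the same class, with differences of 7.34 and 6.08. Their effects at 1 day were -0.88 and -1.74, neither past the test, and at 3 days 6.47 and 4.34. MI libraries A and B of 1 day held 3 and 10 counts of Hist1h2ah and 3 and 14 of Hist1h3i.

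The promoters of cell cycle genes are often bound through CCAAT boxes and the CHR element TTTGAA. Of the 32 list members with a single RefSeq promoter, 24 (75.0%) held CCAAT on either strand in the 300 bases around the start, against 38.5% of 9159 tested genes. The CHR letters stood in 15 (46.9%), against 12.3%. Cdk1 and Top2a are shown since they hold both kinds: Cdk1 has CCAAT boxes at -208, -80 and -48 and CHR letters at -71 and -15. Top2a has 6 CCAAT boxes and CHR letters at -179 and -23. The 250 bases before each start (chr10:69352913-69353162 and chr11:99024190-99024439, both minus strand, GRCm38.p6, RefSeq) are printed 5′ to 3′ with matches on either strand in capitals.
Cdk1: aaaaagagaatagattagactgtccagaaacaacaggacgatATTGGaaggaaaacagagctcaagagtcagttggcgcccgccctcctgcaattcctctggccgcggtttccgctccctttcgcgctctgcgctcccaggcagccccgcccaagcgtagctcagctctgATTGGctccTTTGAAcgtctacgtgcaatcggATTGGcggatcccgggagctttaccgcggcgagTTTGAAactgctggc
Top2a: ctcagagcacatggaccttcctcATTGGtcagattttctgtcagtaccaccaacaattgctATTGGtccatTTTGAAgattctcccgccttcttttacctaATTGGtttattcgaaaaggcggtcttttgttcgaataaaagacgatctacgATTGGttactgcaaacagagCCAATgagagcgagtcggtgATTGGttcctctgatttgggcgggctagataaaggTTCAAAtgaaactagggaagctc

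Macrophage and lysosomal genes were also among the rises that grew. Gpnmb, a glycoprotein of phagocytes loaded with debris, was at 6.72 and 4.08 CPM after sham surgery and 3.25 and 6.64 CPM after MI at 1 day, and at 4.44 and 2.44 and 123 and 215 CPM at 3 days. The groups overlapped at 1 day and stood apart at 3 days, with a difference of 5.81 (SE 0.65, adjusted p = 0.000419). Ms4a7, a membrane protein of macrophages, had a difference of 5.52 (SE 0.54, adjusted p = 0.000225). Of 26 markers of recruited monocytes and macrophages, 17 had risen at 1 day and 25 at 3 days. The difference was positive for 13 and negative for 1, against 13.2% and 11.3% of all genes, with a median of 1.57. The 1 was Lpl, lipoprotein lipase, which heart muscle also makes. Arg1, an enzyme of early wound macrophages, was high at both days (6.90 and 6.39), and its difference did not pass the test (-0.51, SE 0.75, adjusted p = 0.658). Of 17 resident macrophage markers, 5 had a positive difference and 2, Lyve1 and Cd163, a negative one, against 13.2% and 11.3% of all genes. The 5 became fewer without sham library B or MI library A of 1 day or MI library B of 3 days. They became more without sham library A of 3 days. Pf4, a chemokine of platelets and of macrophages, had a difference of 2.67 (SE 0.39, adjusted p = 0.00161). Of the 6 erythroid and platelet markers tested it alone passed the test. Their summed level was 97.1 and 89.0 CPM after sham surgery and 131 and 135 CPM after MI at 1 day. At 3 days it was 120 and 76.9 CPM after sham surgery and 527 and 567 CPM after MI. Pf4 made up 350 and 398 CPM of the latter.

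Of 32 lysosomal genes, 15 had fallen and 1 had risen at 1 day, and 21 had risen and 3 had fallen at 3 days. The difference was positive for 25 and negative for 0, against 13.2% and 11.3% of all genes, with a median of 1.58. The 25 became fewer without MI library B of 3 days. Of the 25, 13 had a rise that grew, 7 reversed and 5 had a fall that faded. Ctss, cathepsin S of antigen-presenting cells, was at 50.1 and 67.8 CPM after sham surgery and 96.8 and 93.2 CPM after MI at 1 day, and at 127 and 62.1 and 1394 and 1625 CPM at 3 days. Its difference was 3.31 (SE 0.43, adjusted p = 0.000908). Of the 12 dendritic cell markers, 2 had a positive difference (H2-Eb1 and H2-Aa, which macrophages express too), against 13.2% of all genes. The 12 summed to 234 and 199 CPM after sham surgery and 213 and 153 CPM after MI at 1 day. At 3 days they summed to 526 and 246 CPM after sham surgery and 778 and 1007 CPM after MI. The 13 tested markers of T, B and natural killer cells had 0 positive and 0 negative calls by edgeR and at most 27.2 CPM in sum in any library, with Cd3e and Cd3d not tested for low counts.

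The secretory pathway and the cytosolic ribosome were among the lists with rises that grew. Of 40 genes of the secretory pathway of the endoplasmic reticulum, 6 had risen and 2 had fallen at 1 day, and 37 had risen at 3 days. The difference was positive for 31 and negative for 0, against 13.2% and 11.3% of all genes, with a median of 1.34. Sdf2l1, a chaperone partner in that compartment, had a difference of 3.02 (SE 0.42, adjusted p = 0.00123). Of 40 cytosolic ribosomal protein genes, 8 had risen at 1 day and 38 at 3 days. The difference was positive for 26 and negative for 0, against 13.2% and 11.3% of all genes, with a median of 1.22. Leaving out sham library A of 1 day lowered the 26 to 15, and leaving out sham library B of either day or MI library A or B of 3 days to 14. Rps4x had a difference of 2.10 (SE 0.30, adjusted p = 0.00144) and Rps23 one of 2.02 (SE 0.59, adjusted p = 0.0336); these genes have many processed copies in the genome, which makes single members uncertain. The call for Rps23 was lost without sham library B of 1 day, MI library A of 1 day, sham library A or B of 3 days or MI library A or B of 3 days, or with limma-voom or without both B libraries of 1 day (adjusted p up to 0.202). Of 30 ribosome biogenesis genes, 21 had risen at 1 day and 17 at 3 days, and the difference was positive for 2 and negative for 4, against 13.2% and 11.3% of all genes, with a median of -0.29. The 4 ran from 0 to 11 when 1 library was left out: 0 without sham library A or B of 1 day or MI library A or B of 3 days, 1 without sham library B of 3 days, and 9 or 11 without MI library B or A of 1 day. The 2 were the nucleolar genes Npm1 (1.38, SE 0.36, adjusted p = 0.0206) and Nhp2 (1.22, SE 0.27, adjusted p = 0.00992); the call for Npm1 was lost without sham library B of 1 day, MI library A of 1 day, sham library B of 3 days or MI library A or B of 3 days (adjusted p up to 0.108) and that for Nhp2 without sham library B of 1 day or MI library B of 3 days (adjusted p up to 0.0648). Of 20 aminoacyl-tRNA synthetases 3 had a positive difference, a share near the 13.2% of all genes, led by Dars (1.22, SE 0.27, adjusted p = 0.011) and Rars (1.21, SE 0.28, adjusted p = 0.0123), and the count was 0 without sham library B of 1 day or MI library A of 3 days, 1 without sham library B or MI library B of 3 days, and 5 without MI library B of 1 day. The call for Dars was lost without sham library B of 1 day or MI library A of 3 days (adjusted p up to 0.0605) and that for Rars without sham library B of 1 day, sham library B of 3 days or MI library A or B of 3 days (adjusted p up to 0.0691).

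Of 24 genes of cholesterol synthesis, 7 had a positive difference and 1 a negative one, against 13.2% and 11.3% of all genes, with a median of 0.90. The 7 became fewer without sham library B of 1 day and more without MI library B of 1 day. Cyp51, an enzyme of the late steps, had a difference of 2.47 (SE 0.34, adjusted p = 0.00125). Of 31 interferon-stimulated genes, 13 had risen at 1 day and 24 at 3 days, but the difference passed the test for 5, all positive, a share close to the 13.2% of all genes. The 5 included Oas1a (2.06, SE 0.52, adjusted p = 0.0182), whose call was lost without sham library A or B of 1 day, MI library A of 1 day or MI library B of 3 days, or without both B libraries of 1 day (adjusted p up to 0.0818). The count was 1 without MI library B of 3 days, 2 without sham library A of 1 day, 3 without sham library B of either day or MI library A of 1 day, and 9 without sham library A of 3 days. Of 25 heat shock genes and chaperones, 5 had a positive and 5 a negative difference, against 13.2% and 11.3% of all genes. Either count was 2 or 3 without sham library B of 1 day or MI library B of 3 days. The positive count was also 2 without MI library A of 3 days, and the negative one 3 without sham library B of 3 days and 8 without MI library B of 1 day. Hspb1 and Cryab, small heat shock proteins of muscle, had the most negative differences of the list. Cryab went from 0.57 to -2.05 (difference -2.62, SE 0.29, adjusted p = 0.000433).

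Falls that grew included the contractile genes. All 25 sarcomere genes had a negative difference past the test, with a median of -2.49, and the count was 24 or 25 without any 1 library. The share over all genes with a negative difference was 11.3%. At 1 day 20 of the 25 sarcomere genes had fallen and 1, Xirp2, had risen, and at 3 days 24 had fallen. Myh6, the fast cardiac myosin heavy chain, was at 37278 and 34617 CPM after sham surgery and 16222 and 8302 CPM after MI at 1 day. By 3 days its level was 22316 and 25261 CPM after sham surgery and 631 and 695 CPM after MI. The MI libraries were below sham on both days and further below at 3 days, with effects of -1.55 and -5.17 and a difference of -3.61 (SE 0.41, adjusted p = 0.000447). Ttn, the giant spring protein titin, did not pass the test at 1 day (-0.26, SE 0.34, adjusted p = 0.569) and was at -4.14 at 3 days, a difference of -3.88 (SE 0.50, adjusted p = 0.000824). Myh7b, a slow-type myosin gene, had a difference of -4.15 (SE 0.66, adjusted p = 0.00241).

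Of 25 genes of ion channels and calcium cycling, 22 had fallen at 1 day and 25 at 3 days. The difference was negative for 23, against 11.3% of all genes, with a median of -2.16. Scn4b, a beta subunit of the cardiac sodium channel, was at 72.4 and 78.9 CPM after sham surgery and 30.1 and 18.3 CPM after MI at 1 day, and at 59.5 and 65.9 and 0.369 and 0.545 CPM at 3 days. Its difference was -5.44 (SE 0.45, adjusted p = 0.000118). Hrc, a calcium-binding protein of the sarcoplasmic reticulum, had one of -4.51 (SE 0.28, adjusted p = 9.18e-05). Cacna1s, a calcium channel subunit best known from skeletal muscle, was at 13.1 and 11.6 CPM after MI at 1 day, against 14.4 and 17.9 CPM after sham surgery, and at 0.287 and 0.306 CPM after MI at 3 days, against 21.9 and 20.7 CPM; its difference of -5.75 (SE 0.44, adjusted p = 0.000111) was the most negative among the named falls that grew. Grip2, a scaffold protein of membrane receptors, and Vwa3a had differences of -5.31 and -5.07.

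The effect of MI on energy metabolism also lay further down at 3 days than at 1 day, by list. At 1 day 21 of 28 fatty acid oxidation genes had fallen and 1, Pdk4, had risen. Of 20 citric acid cycle and pyruvate dehydrogenase genes 19 had fallen at 1 day, and of 40 nuclear genes of the respiratory chain 38. At 3 days all members of each list had fallen. The difference was positive for 0 in each list, against 13.2% of all genes. It was negative, against 11.3% of all genes, for 26 fatty acid oxidation genes (median -2.30). It was also negative for 18 citric acid cycle and pyruvate dehydrogenase genes (median -1.29) and 29 respiratory chain genes (median -1.22). Without sham library B of 1 day the last 2 counts became 11 and 16, without MI library A of 3 days 10 and 18, and without MI library B of 3 days the 29 became 16. Ucp3, a mitochondrial carrier of muscle, went from 0.68 to -4.81 (difference -5.49, SE 0.59, adjusted p = 0.00037). Cox6a2 and Cox7a1, the muscle forms of 2 subunits of cytochrome c oxidase, had differences of -3.69 (SE 0.25, adjusted p = 9.76e-05) and -3.19 (SE 0.23, adjusted p = 0.000105), and the cycle enzyme Idh2 one of -2.93 (SE 0.31, adjusted p = 0.000326). In the transcript tables, reads of the mitochondrial genome itself went from 28.7% and 43.3% after MI at 1 day to 6.51% and 4.19% at 3 days, above the 13.9 to 16.6% of the sham libraries at 1 day and below it at 3 days. Of 29 tested genes of glycolysis and hypoxia, 13 had a negative difference and 1 a positive one, against 11.3% and 13.2% of all genes, with a median of -1.30. The 13 became 6 without sham library B of 1 day or MI library B of 3 days, and 8 without sham library B of 3 days. Slc2a4, the insulin-dependent glucose transporter, went from -1.98 to -5.40 (difference -3.42, SE 0.38, adjusted p = 0.000405), and Ldhb, the heart form of lactate dehydrogenase, had a difference of -3.07 (SE 0.27, adjusted p = 0.000161), whereas Pgk1, a glycolytic enzyme of all cells, was the 1 positive member (0.95, SE 0.25, adjusted p = 0.0229).

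Marker lists of other cell types were also counted. Of 15 endothelial markers 2 had a negative difference (Rgcc and Cldn5), near the 11.3% of all genes, and 0 a positive one, with a median of -0.37 and a summed level of 1796 to 3206 CPM over the 8 libraries. Of 12 epicardial and mesothelial markers 0 passed the test of the difference by edgeR. Of the same 12, 2 had risen at 1 day and 3 at 3 days, against 19.3% and 31.7% of all genes. Of the 10 adipocyte markers 5 were tested, and 1, Pnpla2, which heart muscle also makes, had a negative difference. Of the 10 skeletal muscle markers 6 were tested, with Myh1, Myh2, Myh4 and Pvalb too low to test, and 2, Acta1 and Ckm, which cardiomyocytes also make, had a negative difference. Among the 7 tested markers of the atrial list the difference was positive for Nppa and Dkk3 and negative for Stard10. Of the 6 Schwann cell markers it was positive for Cnp and negative for Sox10. These counts of 1 or 2 stand beside 13.2% positive and 11.3% negative over all genes. The medians of all 24 pathway and cell lists at each day are drawn side by side in the plot of lists.

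**Figure D4:**
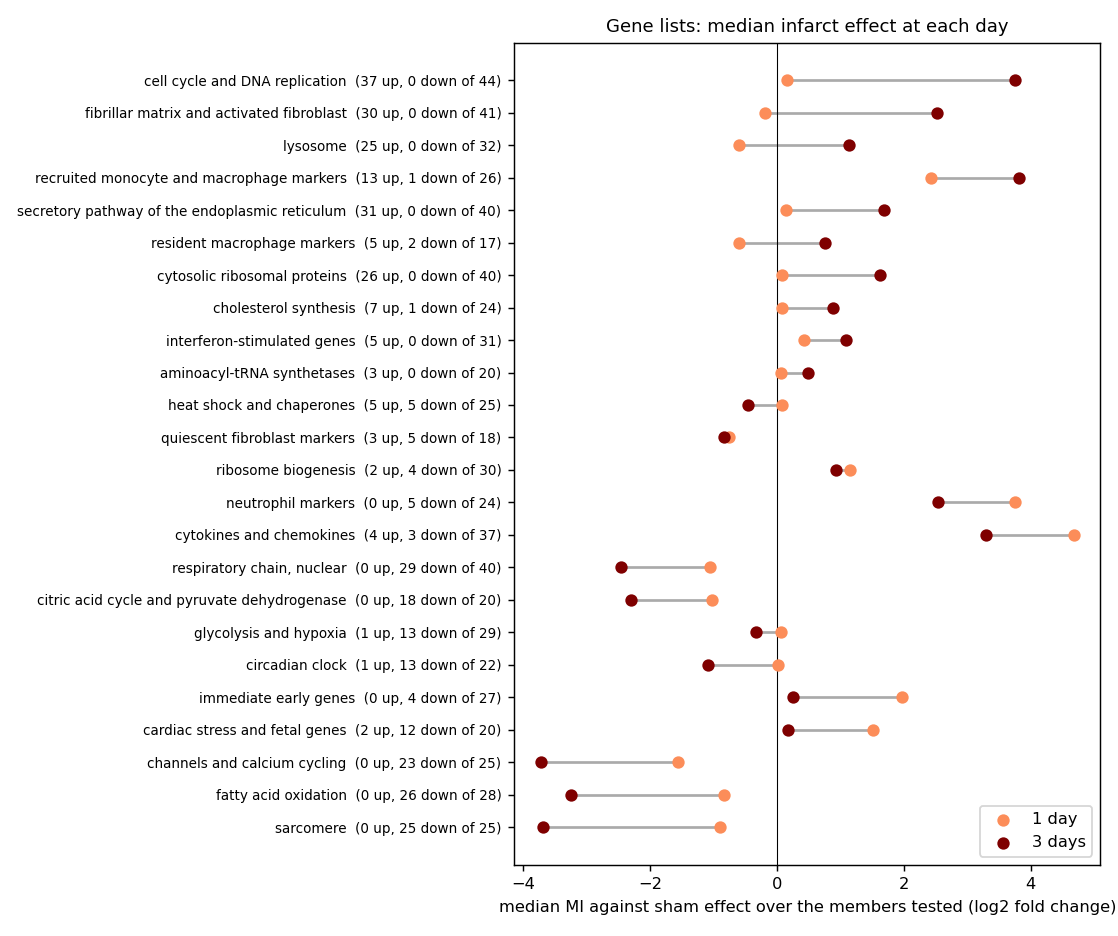
Median log2 fold change of MI against sham over the tested members of each of 24 gene lists, at 1 day (light) and at 3 days (dark); the labels give the members whose difference passed the test, up and down. Cell cycle and matrix lists lie near 0 at 1 day and high at 3 days, and the sarcomere, channel and fatty acid oxidation lists are below 0 at 1 day and much lower at 3 days.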

How the data were processed

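Ribosomal RNA was removed from total RNA before paired-end sequencing, per the labels' protocols. The submitters' processing notes name TopHat2 2.0.14, Bowtie2 2.2.5, HTSeq, SAMtools 0.1.2, DESeq2, FastQC and the build mm10, with no role or order. Neither strand setting nor annotation release is stated for the counts, so an overlapping gene pair on either strand may share reads. The authors deposited raw read counts per gene symbol in 1 table per day, and counts of total reads per transcript, per the file headers, from which the mitochondrial shares come. The authors' own tables of test results were not used. The labels call the 2 mice of a group biological replicates.

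Both gene tables were joined by symbol, which gave 24062 genes. The edgeR filter for low counts left 15508 tested and 8554 not. CPM uses TMM-scaled library sizes. One model with a mean per group was fitted to all 8 libraries (edgeR 4.0.16, R 4.3.3, 2-sided quasi-likelihood F test, robust), and Benjamini-Hochberg adjustment ran over every gene tested, with a threshold of 0.05. Alternatives used limma 3.58.1 and DESeq2 1.42.0. The SE is the log2 fold change divided by the square root of F. The scripts were tested on simulated data. Named genes were the 5 largest in each class with a mean of at least 5 CPM, more than 10 counts in each group, no predicted-gene symbol and effects of the days apart, the 2 largest called members of each of 24 lists, and 11 genes always named. The members, lists and 11 marker lists were chosen with earlier results of these data known. List counts are compared with all genes, and those of 1 or 2 members that moved by 1 or 2 with a library left out are not repeated. Positions come from RefSeq for GRCm38.p6. Of the genes tested, 9159 had exactly 1 RefSeq promoter (300 bases) and 2229 several, which were left out; 52 of the 78 named genes matched. Values of 2 of the named genes are not reported here.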

Additional observations from a re-analysis of the deposited data

Results flagged for a closer look

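Each gene named in the report whose difference passed the test is listed here, because the effect of MI differed between the days by a test of the difference itself. The number after each gene is its difference on the log2 scale, 3 days minus 1 day (edgeR, all 8 libraries). Among genes that rose at 1 day and fell at 3 days were Scd4 (-6.83), Pdk4 (-5.03), Klhl41 (-4.62), Slc1a1 (-4.52), Klhl40 (-4.35), Xirp1 (-3.99), Hspb1 (-2.85) and Ciart (-3.55). Among genes that fell and then rose were Hist1h3c (7.22), Hist1h1b (7.18), Hist1h2bj (7.01), Hist1h1a (6.85), Hist1h2ak (6.82), Ccl8 (3.77), Col1a1 (6.00) and Col1a2 (5.01). Further members of that class were Col15a1 (2.62), Bst2 (2.93), Serpinh1 (2.85), Gusb (2.94), Col3a1 (4.21) and Acta2 (1.78). Among rises that faded were Ngp (-7.53), Arc (-4.77), Cd177 (-4.11), Usp53 (-3.89), Cass4 (-3.69), Il6 (-4.23), Btg2 (-2.96) and Nppb (-1.74). Among falls that faded were Snora64 (3.12), L3hypdh (2.92), Spon2 (2.60), Snora5c (2.45) and Tmem106c (2.42). Among rises that grew were Hist1h2ah (7.34), Cdca3 (6.32), Hist1h3i (6.08), Aurkb (5.95), Gpnmb (5.81), Ms4a7 (5.52), Pf4 (2.67) and Top2a (5.59). Further members of that class were Oas1a (2.06), Cyp51 (2.47), Sdf2l1 (3.02), Rps4x (2.10), Rps23 (2.02), Npm1 (1.38) and Nhp2 (1.22). The class also held Dars (1.22), Rars (1.21), Ctss (3.31), Nppa (1.27), Postn (3.63) and Cdk1 (5.31). Among falls that grew were Cacna1s (-5.75), Ucp3 (-5.49), Scn4b (-5.44), Grip2 (-5.31), Vwa3a (-5.07), Myh7b (-4.15), Ttn (-3.88) and Hrc (-4.51). Further members of that class were Cox6a2 (-3.69), Cox7a1 (-3.19), Idh2 (-2.93), Scara5 (-3.94), Klf4 (-2.17), Slc2a4 (-3.42) and Ldhb (-3.07). The class also held Cryab (-2.62), Hlf (-3.04) and Myh6 (-3.61).

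Reads outside the gene comparisons also stood apart. Mitochondrially encoded genes, which are only in the transcript tables, took 28.7% and 43.3% of the reads after MI at 1 day in libraries A and B, above the 13.9 to 16.6% of the 4 sham libraries. Chemosensory receptor genes with reads were 92.3% of 1503 in MI library B at 1 day, above the 4.32 to 50.6% of the sham libraries. Their part in the results was not tested.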

How the results depend on the processing

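The genes that passed the test kept the sign of the difference in every setting run on the gene counts. This covers the genes tested in a setting (3451 of the 3799 under the stricter filter, all in the others). It says little about robustness, because the MI-minus-sham differences of 1 day lay wholly apart from those of 3 days in all 3799 genes. Leaving out a library keeps that order, and the other settings on the gene counts reuse the same counts. With the transcript tables as input, 3589 of the 3595 genes tested kept the sign. Of the 76 named genes that passed the test, 57 passed it in every setting and 19 lost it in some. The class was less stable, and 33 of the 76 kept it in every setting. Hist1h1a kept its class in 11 of 16 settings, Hist1h2bj in 12, Hist1h3c in 13 and Cryab in 10. Arg1, which did not pass, ranged from -2.48 to 0.29 when each library was left out, with the positive value without sham library A of 1 day. Total calls were 3751 with DESeq2 size factors, 3775 with library size alone, 3293 with no filter, 3654 with a stricter one, 4352 with DESeq2 and 3695 with limma-voom. Size factors of DESeq2 moved the share of positive calls from 53.9% to 47.8%. Library size alone moved the median effect of all genes by 0.28 at 1 day and 0.26 at 3 days but the difference by -0.01, and so moved genes between classes: falls that then rose became 152 and falls that faded 182. Rises that faded were 474 with DESeq2 and 154 with no filter, which also left 44 rises that then fell. Without both B libraries of 1 day, 155 genes fell and then rose and 192 falls faded; the cause was not tested. When each library was left out in turn, total calls ranged from 1813 to 5022, positive calls from 944 to 2604 and negative calls from 809 to 2889. Rises that then fell ranged from 19 to 228, falls that then rose from 71 to 339, rises that faded from 66 to 684, falls that faded from 83 to 584, rises that grew from 748 to 1767 and falls that grew from 705 to 1899. The lowest counts came without sham library B of 1 day or MI library B of 3 days, the highest without an MI library of 1 day. A group left with 1 library is assumed to vary like the others.

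No paired analysis was possible because the count columns carry no mouse numbers. The share of mitochondrial reads from unique reads alone was not run. With 2 libraries a group, not passing the test does not show that the effects were equal.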

Other observations

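Several other genes, chosen after their values were seen, showed the same 2 directions. The 3 chains of complement C1q, made mainly by tissue macrophages, fell and then rose: C1qa went from -1.89 to 1.45, C1qb from -1.48 to 2.14 and C1qc from -1.62 to 1.38. Their summed level was 400.4 and 469 CPM after sham surgery and 147 and 127 CPM after MI at 1 day, and 589.8 and 297 and 1199 and 1663 CPM at 3 days. Apoe, the lipid carrier of macrophages, went from -1.64 to 1.78 (difference 3.42, SE 0.53, adjusted p = 0.002), and Emr1, the macrophage surface protein F4/80, from -1.07 to 2.38 (difference 3.46, SE 0.50, adjusted p = 0.00144). Trem2, a lipid receptor of phagocytes, had no call at 1 day (-0.77, SE 0.53, adjusted p = 0.273) and was at 4.38 at 3 days.

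Among the rises that faded, 4 further genes were also picked after their values were seen, and they stand for no list: of the 15 endothelial markers counted in the report, 2 had a negative difference. Selp, P-selectin, which catches leukocytes, went from 5.74 to 2.90 (difference -2.85, SE 0.71, adjusted p = 0.0182), Adamts1, a matrix protease, from 3.31 to 0.11 (difference -3.20, SE 0.58, adjusted p = 0.00429), and Thbd, thrombomodulin, from 2.13 to -0.51 (difference -2.64, SE 0.63, adjusted p = 0.0152). Hbegf, a growth factor of wounds, went from 3.40 to 0.69 (difference -2.71, SE 0.53, adjusted p = 0.00641). Of the genes that rose and then fell, Nmrk2, a muscle kinase for making NAD, went from 2.28 to -1.16 (difference -3.44, SE 0.54, adjusted p = 0.00217) and the nuclear long noncoding RNA Malat1 from 0.90 to -1.08 (difference -1.98, SE 0.43, adjusted p = 0.0102). Of 73 tested small nucleolar RNA symbols, also chosen after the values were seen, 13 had a positive difference and 1 a negative one, against 13.2% and 11.3% of all genes.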
